A study of Mus musculus with 8 samples.

Results

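The acetyl-CoA carboxylases, their regulators and the other enzymes that carry or handle biotin were examined in 8 libraries of mouse liver. The 10 genes were chosen by their role, with earlier results of these data known. They are Acaca and Acacb, Mid1ip1, Mlycd, Pcx, Pcca, Pccb, Mccc1, Hlcs and Btd. All 10 are among the 31910 genes of the deposited count table. Mice received an adeno-associated virus by tail vein, AAV2/9-Ctrl for 4 libraries (Ctrl 1 to 4) and AAV2/9-SA for the other 4 (SA 1 to 4). By its title, the study asks how a tetramer-forming protein of bacterial origin, which attaches to acetyl-CoA carboxylase and moves it within the cell, acts in steatohepatitis. The design text gives a dose of 4.8e10 vg a mouse at week 7 of feeding, and names 3 diets: HFD for 24 weeks, HFHC with sugared water for 16 weeks, and normal chow. The labels of these 8 libraries do not give the diet, strain, sex or age of a mouse, the promoter of the vector, or whether each library is 1 animal, so each p-value here speaks of the spread among libraries, which may be technical.

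Acetyl-CoA carboxylase turns acetyl-CoA into malonyl-CoA, the building block of fatty acid synthesis and an inhibitor of the entry of fatty acids into mitochondria. Biotin, bound to a lysine of the enzyme, carries the carboxyl group. The same cofactor serves pyruvate carboxylase, propionyl-CoA carboxylase and methylcrotonyl-CoA carboxylase, which work in mitochondria. The ligase encoded by Hlcs attaches biotin to these enzymes, and biotinidase, encoded by Btd, frees it again.

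Total counts were 14359368 to 15328093 in Ctrl and 14114145 to 15922829 in 3 SA libraries, and 28184001 in SA 4. The share of mitochondrial transcripts was 9.23% in Ctrl 4, the highest, against 3.55% to 4.87% elsewhere. The 8 listed hepatocyte markers, Alb and Hnf4a among them, had counts in all libraries, with a summed level of 70928 to 102160 CPM in Ctrl and 66561 to 88805 CPM in SA. CPM are counts scaled to the library total and by TMM factors, which level out differences in composition. Adipocytes and skeletal muscle also hold acetyl-CoA carboxylases. Lep, Ckm, Myh4 and Myh1 had 0 counts in every library and Adipoq at most 2. The stellate marker Lrat, the B cell marker Ms4a1 and the neutrophil marker Ly6g were at 0 in every library as well. A count of 0 here therefore does not show that a cell type is absent. The adipocyte list summed to 59.4 to 136 CPM in Ctrl and 25.02 to 61.2 CPM in SA, nearly all of it from Cfd and Fabp4, and its part in the results was not tested. Markers of stellate cells summed to 318.5 to 787 CPM in Ctrl and 259.9 to 323 CPM in SA, and those of bile duct cells to 35.1 to 134 CPM and 37.8 to 66.9 CPM. Other lists did not all run the same way. In Ctrl and SA, Kupffer cell and macrophage markers summed to 175 to 291 and 242 to 352 CPM. Endothelial markers summed to 181 to 233 and 148 to 236 CPM. Those of T, B and NK cells summed to 2.30 to 7.65 and 6.63 to 9.41 CPM, and those of neutrophils to 7.03 to 17.0 and 6.19 to 10.3 CPM. In whole liver, fewer cells of a type and less RNA per cell cannot be told apart.

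None of the genes differed between the groups past the threshold, an adjusted p under 0.05 in edgeR's quasi-likelihood test. Of the 10 genes, 9 had enough counts to be tested, and Mccc1 did not. With edgeR 0 of the 9 passed, against a background of 0.0162% of the 12358 genes tested (1 gene higher in SA, 0.00809%, and 1 lower, 0.00809%). Also 0 of the 9 had an unadjusted p under 0.05, against 6.21% of all tested genes. DESeq2 called 0 of the 10, where its background was 0.346% of 17359 genes, and none of the 10 had an unadjusted p under 0.05 there. The CPM of the groups overlapped for all 9, while they did not overlap for 3.12% of tested genes. Fold changes were below 0 on the log2 scale for 8 of the 9, with a median of -0.07, and for 51.3% of all tested genes, with a median of -0.01. The 95% intervals of the 9 fold changes ran from 0.603-fold at the lowest bound, for Hlcs, to 1.37-fold at the highest, for Mid1ip1. Changes of a size within a gene's interval are not excluded by these data.

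**Figure D1:**
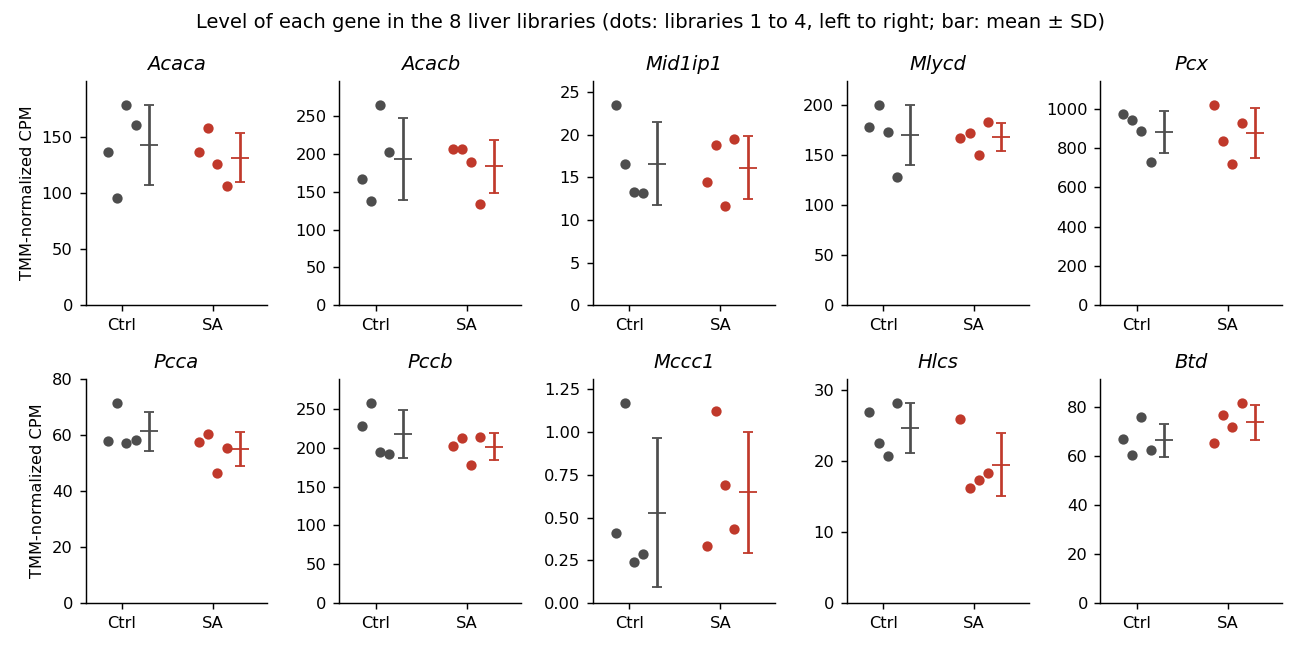
TMM-normalized CPM of the 10 genes (vertical axes, each from 0) in the 4 Ctrl (grey) and 4 SA (red) libraries, one dot per library, with the mean and SD beside them. The groups overlap in every panel, and Mccc1 lies at or below 1.17 CPM.

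Acaca encodes the cytosolic carboxylase that supplies fatty acid synthesis. It was at 136, 95.3, 178 and 161 CPM in Ctrl 1 to 4 and at 136, 158, 126 and 106 CPM in SA 1 to 4. Ctrl 2 was the lowest and Ctrl 3 the highest library, and the SA values lay between them. The log2 fold change was -0.12, with a 95% interval of -0.54 to 0.30 (edgeR, adjusted p = 0.996).

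Acacb encodes the carboxylase held at the outer mitochondrial membrane, whose malonyl-CoA restrains the carnitine shuttle. It was at 167, 138, 265 and 203 CPM in Ctrl and at 206, 207, 189 and 133 CPM in SA. Ctrl 3 was again the highest, and SA 4 and Ctrl 2 were the lowest. The log2 fold change was -0.07, with a 95% interval of -0.52 to 0.38 (edgeR, adjusted p = 0.996). Without Ctrl 3 the log2 differences were 0.00904 for Acaca and 0.12 for Acacb, and without SA 4 that of Acacb was 0.05, so neither had a stable sign.

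Across the 8 libraries Acaca and Acacb had closely similar patterns in the counts. As a measure of likeness, each gene's log2(CPM + 0.5) was centred on its mean over the 8 libraries, and the root mean square of the difference between a pair of genes was taken. Between Acaca and Acacb it was 0.119, and Acacb was 3rd closest to Acaca among 7773 genes with a mean of at least 10 CPM, whose median was 0.358. Acaca was likewise 3rd closest to Acacb, where the median was 0.376. The deviations of the 2 genes had the same sign in 6 of the 8 libraries. Both were high in Ctrl 3 (0.41 and 0.52 above their means) and low in Ctrl 2 (-0.49 and -0.42) and SA 4 (-0.35 and -0.47). In the FPKM table, described below, both were lowest in SA 4 and Ctrl 2 too. There Acaca was not high in Ctrl 3, at 0.723 against 2.002 in Ctrl 1, while Acacb was at 16.8 in Ctrl 3. The genes nearest to Acaca were Ccdc127 (0.0926), Wdfy1 (0.105), Acacb, Jcad (0.119) and Pcnx4 (0.141). Those nearest to Acacb were Wdfy1 (0.117), Chst13 (0.117), Acaca, Mast2 (0.132) and Tshz2 (0.138). Of the lipogenic genes looked up afterwards, Fasn, which uses malonyl-CoA to build fatty acids, ranked 294 for Acaca (0.232) and 778 for Acacb (0.269), Acly ranked 927 and 1144, and the transcription factors Srebf1 and Mlxipl ranked 6869 and 4285 for Acaca and 7223 and 2981 for Acacb. All genes were read from the same 8 libraries, of which SA 4, one of the low ones, was sequenced most deeply, and no test was made of this likeness.

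Windows before listed starts are shown for the pairs that varied together in the counts, Acaca with Acacb and, below, Pcca with Pccb. Each window holds the 250 bases before a transcription start listed by RefSeq for GRCm38.p6, 5′ to 3′ on the gene's strand. Capitals mark matches, on either strand, to CCAAT, the box bound by NF-Y, and TATAAA, the TATA box. The E-box CACGTG and TCACNCCAC, a consensus of the sterol response element, were searched too.
Acaca, chr11:84195188-84195437, strand +: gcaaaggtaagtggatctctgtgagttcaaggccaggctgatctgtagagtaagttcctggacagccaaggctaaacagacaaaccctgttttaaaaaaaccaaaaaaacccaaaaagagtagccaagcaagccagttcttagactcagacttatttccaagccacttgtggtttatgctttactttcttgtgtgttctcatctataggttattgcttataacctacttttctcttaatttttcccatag
Acacb, chr5:114165268-114165517, strand +: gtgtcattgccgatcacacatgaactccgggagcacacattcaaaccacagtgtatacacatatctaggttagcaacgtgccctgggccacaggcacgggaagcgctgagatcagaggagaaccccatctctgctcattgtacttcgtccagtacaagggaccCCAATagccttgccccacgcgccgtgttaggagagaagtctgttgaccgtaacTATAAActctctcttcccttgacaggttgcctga
Acaca's window held none of the 4 motifs and 0 CG pairs, at 39.2% G or C. Of the 9 GENCODE M21 transcripts of Acaca, 1 begins within 100 bases of that start and 7 contain the 25 bases after it, so for most of them the window lies inside the gene and is no promoter. Nothing is read from its lack of motifs. Of 5 transcripts of Acacb, 1 begins within 100 bases of the start shown. Acacb's window had 1 CCAAT, 87 to 83 bases before the start, and 1 TATAAA, 34 to 29 bases before it, with 10 CG pairs. Over the 32851 windows of all genes, CCAAT was found in 33.9%, TATAAA in 12.4%, CACGTG in 6.02% and TCACNCCAC in 1.05%, with a median of 6 CG pairs. A match is a string of letters in this window and no measured site.

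**Figure D2:**
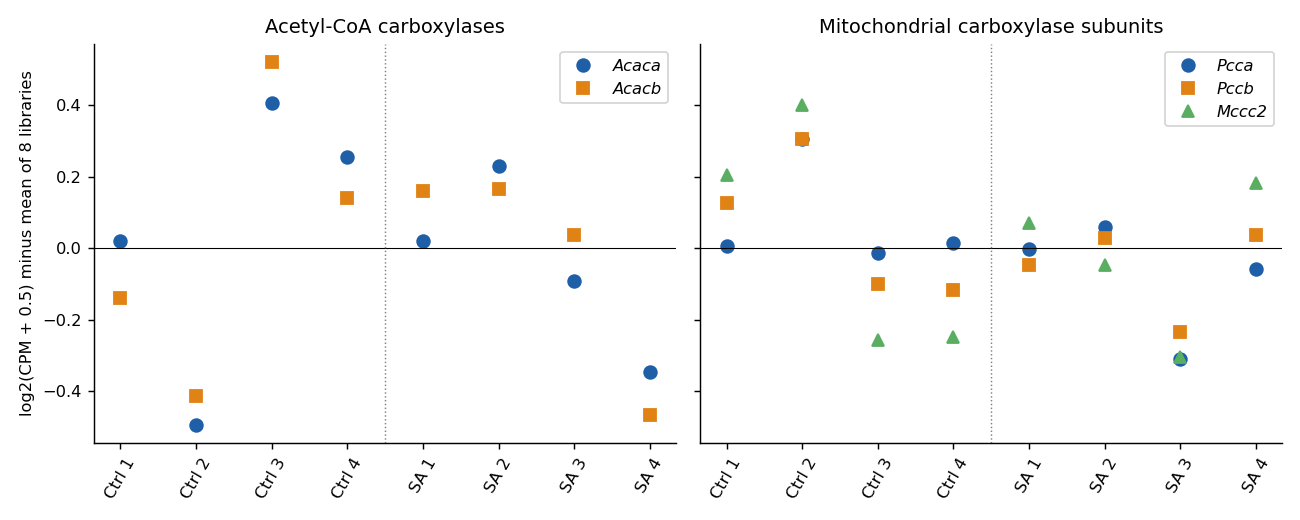
Deviation of log2(CPM + 0.5) from the mean of the 8 libraries (vertical axis) in each library (horizontal axis), for Acaca and Acacb on the left and Pcca, Pccb and Mccc2 on the right. Acaca and Acacb are high in Ctrl 3 and low in Ctrl 2 and SA 4, while Pcca and Pccb are high in Ctrl 2 and low in SA 3.

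Mid1ip1 encodes a small protein that promotes the polymerization and activity of acetyl-CoA carboxylase, and Thrsp, its paralog, encodes the thyroid hormone responsive protein Spot 14. Mid1ip1 was at 23.5, 16.5, 13.3 and 13.1 CPM in Ctrl and at 14.5, 18.8, 11.7 and 19.5 CPM in SA. Ctrl 1 stood highest and the SA values overlapped the rest. Its log2 fold change was -0.04, with a 95% interval of -0.53 to 0.45 (edgeR, adjusted p = 0.996). Without Ctrl 1 it was 0.17, and its sign also turned without SA 1 (0.01) or SA 3 (0.09). Thrsp, which is no member of the chosen set, spread far more, from 138 CPM in SA 3 to 628 CPM in SA 4 and from 227 to 516 CPM in Ctrl. Its SD within groups was 0.73 on the log2 scale, above that of 98.0% of tested genes, and Mid1ip1's was 0.36, above that of 70.8%. An antisense gene model on the opposite strand overlaps 25.5% of the exon bases of Mid1ip1 in GENCODE M21, and whether strand was used in counting is not stated.

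Mlycd encodes malonyl-CoA decarboxylase, which removes the product of the carboxylases. It was at 178, 199.99, 173 and 128 CPM in Ctrl and at 167, 172, 149.9 and 183 CPM in SA. Ctrl 4, the library with the high mitochondrial share, was the lowest. The log2 fold change was -0.02, with a 95% interval of -0.35 to 0.32 (edgeR, adjusted p = 0.996). Without Ctrl 4 it was -0.14, and without Ctrl 2 it was 0.08.

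Pcx encodes pyruvate carboxylase, the mitochondrial enzyme that makes oxaloacetate for gluconeogenesis and the citric acid cycle. It was at 972, 942, 887 and 730.2 CPM in Ctrl and at 1019.8, 836, 721 and 928 CPM in SA, so that the highest and the lowest library were both SA. Its log2 fold change was -0.01, with a 95% interval of -0.36 to 0.34 (edgeR, adjusted p = 0.996), and 0.07 without SA 3. The genes with the pattern most like that of Pcx were Sae1 (root mean square difference 0.0332), Pop5 (0.0591), Pqbp1 (0.0605), Uck1 (0.0669) and Puf60 (0.0691), against a median of 0.283 over the same 7773 genes.

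Pcca and Pccb encode the α and β subunits of propionyl-CoA carboxylase, which feeds odd-chain fatty acid and branched-chain amino acid carbon into the citric acid cycle. Pcca was at 58.1, 71.6, 57.3 and 58.4 CPM in Ctrl and at 57.7, 60.3, 46.6 and 55.5 CPM in SA. Ctrl 2 was the highest and SA 3 the lowest. Pccb had the same 2 extremes, with 228, 259, 195 and 193 CPM in Ctrl and 202, 213, 178 and 215 CPM in SA. The log2 fold changes were -0.16 (95% interval -0.46 to 0.15) for Pcca and -0.11 (-0.43 to 0.20) for Pccb (edgeR, adjusted p = 0.996 each).

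These subunits were the pair of genes with the smallest difference among the 9 tested genes, Thrsp, Mccc2 and Fasn, at 0.0850. Pccb ranked 6 of 7773 for Pcca, and Pcca ranked 76 for Pccb. Mccc2, the β subunit of methylcrotonyl-CoA carboxylase, was at 0.113 from Pccb (rank 267), Mlycd at 0.118 (rank 347) and Pcx at 0.142 (rank 687). From Pcca, Pcx was at rank 777 and Mccc2 at rank 1002, so by this measure they were less close to Pcca than Pccb was. The measure is also small for any 2 genes that vary little. The SDs within groups of Pcca and Pccb were above those of only 12.2% and 15.2% of tested genes. Deviations had the same sign as those of Pcca in 6 of 8 libraries for Pccb, in 3 for Pcx and in 4 for Mccc2. Against Acaca, Pcca and Pccb were at 0.359 and 0.397, ranks 3933 and 5003. Ctrl 2, where Acaca and Acacb were low, was thus the library with the highest Pcca and Pccb.
Pcca, chr14:122534078-122534327, strand +: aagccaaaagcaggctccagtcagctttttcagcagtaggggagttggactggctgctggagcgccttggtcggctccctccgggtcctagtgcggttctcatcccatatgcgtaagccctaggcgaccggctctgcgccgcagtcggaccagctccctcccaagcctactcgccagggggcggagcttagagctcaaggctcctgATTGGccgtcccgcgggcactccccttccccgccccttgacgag
Pccb, chr9:101034885-101035134, strand -: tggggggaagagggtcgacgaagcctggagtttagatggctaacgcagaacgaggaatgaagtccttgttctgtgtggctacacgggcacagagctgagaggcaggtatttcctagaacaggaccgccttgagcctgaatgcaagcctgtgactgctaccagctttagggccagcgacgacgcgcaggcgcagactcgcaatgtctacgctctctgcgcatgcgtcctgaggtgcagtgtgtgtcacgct
The window of Pcca, 1 of the 2 starts listed for it, had 1 CCAAT on the opposite strand, 44 to 40 bases before the start, with 17 CG pairs, and that of Pccb had none of the 4 motifs and 16 CG pairs. Of 13 GENCODE M21 transcripts of Pcca, 4 begin within 100 bases of the start shown, as do 4 of 6 for Pccb. Over the 14 windows of the 10 genes, 7 held CCAAT, 1 CACGTG (Pcx), 1 TATAAA (Acacb) and 0 TCACNCCAC. In the same order, the shares over all 32851 windows were 33.9%, 6.02%, 12.4% and 1.05%. Some genes have more than 1 window among the 14. The other window of Pcca also held CCAAT, and 0 of the 13 transcripts begin within 100 bases of its start.

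**Figure D3:**
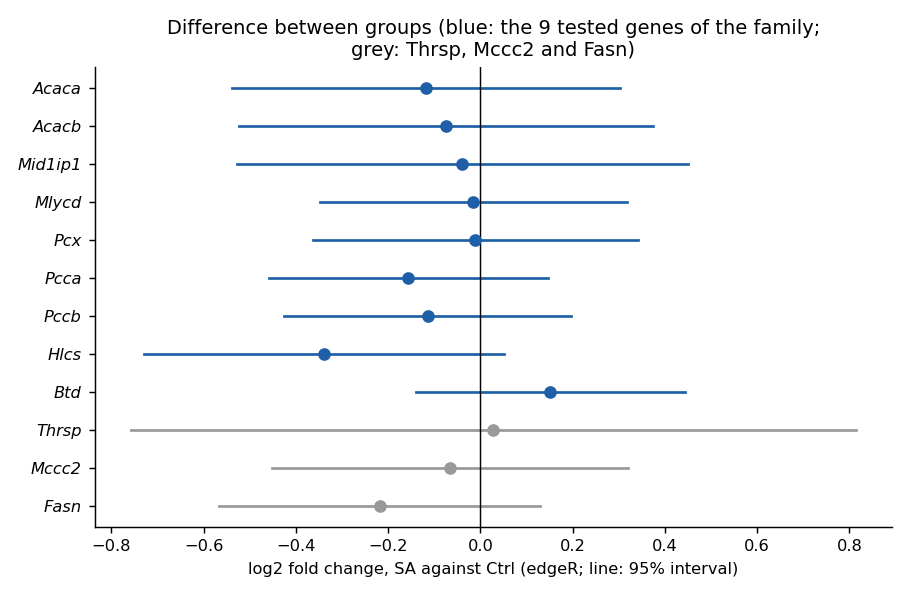
Log2 fold change of SA against Ctrl (horizontal axis, edgeR) with its 95% interval for the 9 tested genes (blue) and for Thrsp, Mccc2 and Fasn (grey). Every interval includes 0, the lowest bound in blue is -0.73 for Hlcs and the highest 0.45 for Mid1ip1.

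Hlcs, the biotin ligase, had the largest difference and the smallest p of the 9, and it did not pass. It was at 26.9, 22.5, 20.7 and 28.1 CPM in Ctrl and at 25.9, 16.1, 17.3 and 18.3 CPM in SA. In SA 3 libraries lay below all of Ctrl, and SA 1 lay within Ctrl. SA stood at -0.34 ± 0.18 (SE) on the log2 scale, with a 95% interval of -0.73 to 0.05 (edgeR, unadjusted p = 0.0821, adjusted p = 0.895). Without SA 1 it was -0.51 (edgeR, adjusted p = 0.551), and over all alternatives the adjusted p ran from 0.551 to 0.9998. In the FPKM table, described below, Hlcs was at 3.76 to 5.57 in Ctrl and 2.27 to 3.59 in SA, with no overlap (limma on log2(FPKM + 1), unadjusted p = 0.0377, adjusted p = 0.999).

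Btd, biotinidase, was alone among the 9 in having a positive log2 fold change. It was at 67.2, 60.7, 76.0 and 62.6 CPM in Ctrl and at 65.3, 76.9, 71.9 and 81.9 CPM in SA. SA 4 was the highest and Ctrl 2 the lowest, and the groups overlapped. The log2 fold change was 0.15, with a 95% interval of -0.14 to 0.44 (edgeR, adjusted p = 0.996). Btd varied little within groups, with an SD of 0.14 on the log2 scale, above that of 8.77% of tested genes. Hacl1, on the opposite strand, overlaps 4.59% of its exon bases.

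Slc5a6, which carries biotin into cells and belongs to the list of biotin and vitamin transporters, was at 34.0, 38.3, 29.9 and 37.5 CPM in Ctrl and at 33.0, 21.1, 25.2 and 20.1 CPM in SA. As with Hlcs, 3 SA libraries lay below all of Ctrl and SA 1 did not. This exception of SA 1 was not limited to biotin genes. Insig2, of the list of lipogenic regulators, was at 415 CPM in SA 1 and at 220, 215 and 200 CPM in SA 2 to 4. Across all tested genes, leaving out SA 1 gave 13 called higher and 6 lower, against 1 and 1 with all libraries (edgeR). SA stood at -0.49 ± 0.17 (SE) on the log2 scale (edgeR, unadjusted p = 0.0146, adjusted p = 0.614). Its FPKM ran from 0.562 to 14.3 over the libraries. The other 2 transporters with the smallest p were Slc16a1 at -0.27 and Slc25a32 at -0.03. All 5 tested had negative values, with a median of -0.03, and 0 passed.

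Ratios within libraries, in which library size cancels, were compared for 6 pairs. With 4 against 4, an exact permutation test cannot give a p below 0.0286. Hlcs to Btd had the largest difference, with log2 ratios of -1.32, -1.43, -1.87 and -1.15 in Ctrl and -1.33, -2.25, -2.05 and -2.16 in SA. The difference was -0.51, with 3 SA libraries below all of Ctrl (exact two-sided permutation test, p = 0.0857, adjusted over the 6 ratios 0.514). Acaca to Acacb had a mean of -0.44 ± 0.14 among Ctrl and -0.48 ± 0.13 among SA libraries (SD, n = 4; exact permutation test, p = 0.543, adjusted p = 0.814). Pcca to Pccb was -1.83 ± 0.11 and -1.88 ± 0.07 (SD, n = 4; exact permutation test, p = 0.486, adjusted p = 0.814). Acacb to Mlycd, the enzymes that make and remove malonyl-CoA, spread from -0.53 to 0.66 in Ctrl and from -0.46 to 0.33 in SA (exact permutation test, p = 0.971, adjusted p = 0.971). Mid1ip1 to Thrsp differed by 0.07 (exact permutation test, p = 0.914, adjusted p = 0.971).

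**Figure D4:**
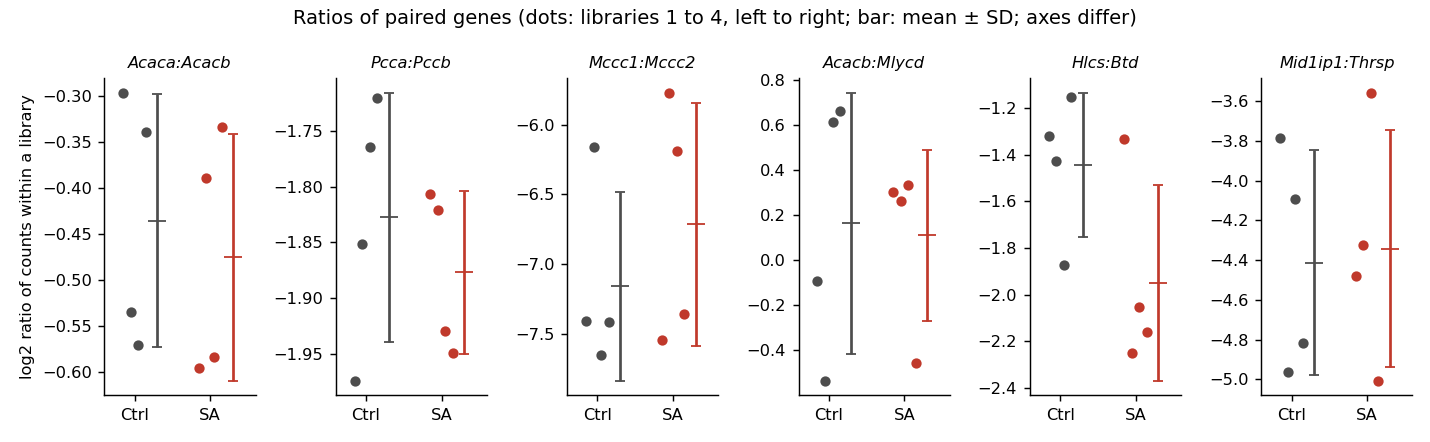
Log2 ratio of the counts of 2 genes within a library (vertical axes, which differ between panels) for the 6 pairs, with dots for the 4 Ctrl (grey) and 4 SA (red) libraries and the mean and SD beside them. In the panel of Hlcs to Btd 3 SA libraries lie below all Ctrl libraries, and in the others both groups cover much of the same range.

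Mccc1, the biotin-carrying α subunit of methylcrotonyl-CoA carboxylase in leucine breakdown, could not be judged, because the 2 deposited tables contradict each other. In the count table it had 6, 17, 4 and 4 reads in Ctrl and 5, 18, 10 and 12 reads in SA, 31 against 45 in all, with SA 4 sequenced more deeply. Its partner Mccc2 had 765 to 1253 reads in Ctrl and 764 to 2052 in SA. In CPM, Mccc1 was at 0.527 ± 0.435 in Ctrl and 0.647 ± 0.353 in SA (SD, n = 4), with overlap. The log2 ratio of Mccc1 to Mccc2 averaged -7.16 ± 0.67 among Ctrl and -6.71 ± 0.87 among SA libraries (SD, n = 4; exact permutation test, p = 0.371, adjusted p = 0.814).

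The FPKM table, in which levels are per kilobase of transcript, put Mccc1 at 25.045, 32.8, 29.9 and 28.3 in Ctrl and at 11.9, 23.9, 19.6 and 14.9 in SA. All 4 SA values lay below all 4 Ctrl values. The difference was -0.73 on the log2(FPKM + 1) scale (limma, unadjusted p = 0.00969, adjusted p = 0.999), opposite in sign to the 0.27 from the counts (DESeq2, adjusted p = 0.998). Of the 8629 genes kept in that table, 0.973% had SA below Ctrl without overlap, and Mccc1 and Hlcs were the 2 of the 10 genes that did. With limma 0.0348% of genes passed, all lower, and 0 of the 10 did.

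The tables also differed in level for Acaca and Pcx. Counts were divided by the exon length of GENCODE M21, which may not be the annotation the authors used. Mccc1 was then at 0.0536 CPM per kb and at a mean FPKM of 23.3, which is 434 times higher. Acaca was at 8.03 CPM per kb but a mean FPKM of 0.860, and Pcx at 185 CPM per kb but 7.27 FPKM, which are 9.33 and 25.4 times lower. For the other 7 genes the FPKM was 0.509 to 4.18 times the CPM per kb, and the median over 8017 genes was 1.53. FPKM more than 10 times above CPM per kb was found for 3.77% of those genes and more than 10 times below for 0.711%. Of 3089 genes with an FPKM of at least 10 in all libraries, 153 had 0 counts in every library. Aldh6a1, of the propionyl-CoA list, was at 0.273 to 2.14 CPM and 214 to 345 FPKM. Hacl1 had 0 counts throughout and an FPKM of 2.06 to 156. The cause of these differences between the tables was not tested.

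For Acacb, Pcx and Acaca, single libraries stood apart in FPKM by far more than in counts. That did not hold for every gene, as the ratio of the highest to the lowest library for Pcca was 1.46 in FPKM and 1.54 in CPM. Acacb was at 0.876 FPKM in Ctrl 2 and 0.757 in SA 4, and at 8.48 to 17.4 in the other 6 libraries, a 23.0-fold range where its CPM had a 1.99-fold range. Ctrl 2 and SA 4 were also its lowest libraries in CPM, at 138 and 133, so for Acacb the tables differ in the size of the dip. Pcx was at 29.1 FPKM in Ctrl 4 and 1.42 to 6.31 in the others, while its CPM in Ctrl 4 was among the lowest. Acaca was at 2.002 FPKM in Ctrl 1 and 0.476 to 0.844 elsewhere.

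**Figure D5:**
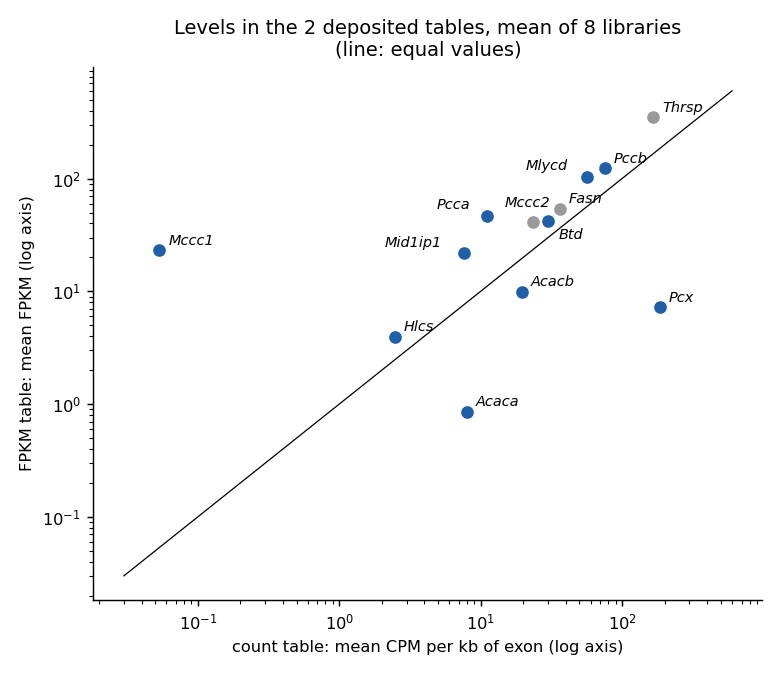
Mean over the 8 libraries of CPM per kb of exon from the count table (horizontal log axis) against mean FPKM from the FPKM table (vertical log axis), for the 10 genes (blue) and Thrsp, Mccc2 and Fasn (grey), with the line of equal values. Mccc1 lies 434 times above the line, and Acaca and Pcx lie 9.33 and 25.4 times below it.

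Per length, the counts ordered the genes as Pcx, Pccb (75.9 CPM per kb), Mlycd (56.9), Btd (29.9), Acacb (19.6), Pcca (11.2), Acaca, Mid1ip1 (7.69), Hlcs (2.46) and Mccc1. In 8 of 8 libraries each gene was above the next, except that Acaca was above Mid1ip1 in 5. The ranges of Acaca and Mid1ip1, 5.58 to 10.4 and 5.49 to 11.03 CPM per kb, overlapped. The order of the FPKM table puts Acaca lowest, so this order holds for the counts only.

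Around the 10 genes, 8 lists of the pathways they serve held 85 tested genes, of which 0 passed with edgeR (lowest adjusted p = 0.342), and 5 (5.88%) had an unadjusted p under 0.05, against 6.21% of all genes. The medians of the lists for AMPK, acetyl-CoA supply, leucine breakdown and biotin transport changed sign when single libraries were left out. The kinase AMPK switches acetyl-CoA carboxylase off by phosphorylation. Of 11 tested genes of its subunits and upstream kinases 6 had positive and 5 negative values, with a median of 0.02. Stradb, a pseudokinase partner of the upstream kinase LKB1, was at 60.6 to 79.6 CPM in Ctrl and 51.0 to 57.3 CPM in SA, without overlap, which edgeR put at -0.34 on the log2 scale (adjusted p = 0.703). Prkag1 had 0.97 at under 3 CPM, and Prkab2 -0.50.

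Among the genes that supply acetyl-CoA or use malonyl-CoA, 7 of 11 had negative values, with a median of -0.03. Scd1, a desaturase, had -0.48, the elongase Elovl6 -0.33 and Fasn -0.22, the last at 355 to 484 CPM in Ctrl and 311 to 420.4 CPM in SA (edgeR, adjusted p = 0.984). The carnitine shuttle, which malonyl-CoA inhibits, had a median of 0.10 over 6 genes. The carnitine transporter Slc22a5 was at 55.5 to 67.2 CPM in Ctrl and 59.2 to 101 CPM in SA, at 0.37 (edgeR, adjusted p = 0.797), Slc25a20 was at 0.15 and Crat at 0.11. The transcriptional regulators had a median of 0.10, with 10 of 13 positive. Srebf2, the regulator of sterol synthesis, was at 45.3 to 57.6 CPM in Ctrl and 59.2 to 68.9 CPM in SA, without overlap, at 0.34 (edgeR, adjusted p = 0.696). Srebf1, which drives lipogenic genes, had -0.42 and Insig2 -0.42.

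For the mitochondrial carboxylases, the propionyl-CoA list had a median of -0.10 over 12 genes, with Mmachc at -0.20 and Mmadhc at -0.12, and Aldh6a1 at 0.51 on very few reads. Leucine breakdown had a median of -0.01 over 11, with Bckdhb at -0.24 and Dld at -0.18. Pyruvate entry and gluconeogenesis had a median of -0.12 over 16, of which 12 were negative. Got1, the cytosolic aspartate aminotransferase, was at 146, 138, 137 and 148 CPM in Ctrl and at 85.2, 109.7, 78.4 and 99.3 CPM in SA. The groups did not overlap, and SA stood at -0.61 ± 0.14 (SE) on the log2 scale (edgeR, adjusted p = 0.342). DESeq2 called it, at -0.62 (adjusted p = 0.0204), alone of the 85 genes, where it called 0.213% of all genes lower. Pck1 had 0.23 and Pdk4 -0.29, and neither passed.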

How the data were processed

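Messenger RNA was measured in 8 mouse liver libraries, grouped by title. The 2 deposited tables were used: read counts of 31910 genes, in whole numbers, and FPKM of 9265 genes, 8638 of them matched to the counts by symbol. Per the labels' protocols, frozen liver gave RNA by RNAiso Plus, from which libraries were prepared by a NEBNext Ultra kit. StringTie 2.2.1, HISAT2 and FastQC 0.19.7 are named per the submitters' processing notes, as are the builds GRCm39 and mm10, without roles. What program made the counts is not stated.

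Counts were tested with edgeR 4.0.16 (R 4.3.3, quasi-likelihood F test, TMM, filterByExpr, Benjamini-Hochberg over 12358 genes). The fit was also run on counts simulated from its own means and spread. That outcome is not reported here, and no result rests on it. Standard errors came from the fold change and F. FPKM were tested with limma 3.58.1 on log2(FPKM + 1). Alternatives were DESeq2 1.42.0, other scaling factors, filters and pseudocounts, a replicate block, and leaving out each library. The members and lists were chosen with earlier results of these data known. Named genes are the 10 members, Thrsp, Mccc2 and Fasn, the 3 smallest p of each pathway list (1 of them is not reported here), and the 5 nearest patterns of Acaca, Acacb and Pcx; genes outside this rule, such as Hacl1, were chosen after their values were seen. No 2 libraries agreed within sampling noise (lowest chi-square per degree of freedom 24.6).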

Additional observations from a re-analysis of the deposited data

Results flagged for a closer look

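In 54 groups of 4 values (CPM, FPKM and ratios of the 10 genes, and total counts), 6 had a library far from the other 3 by Dixon's criterion, which chance gives in about 1 of 20 groups. For Pcca, Ctrl 2 had 71.6 CPM against 57.3 to 58.4 CPM in its group. For Acaca, Ctrl 1 had 2.002 FPKM against 0.658 to 0.755 FPKM. Pcx was at 29.1 FPKM in Ctrl 4 against 2.61 to 4.19 FPKM. The log2 ratio of Mccc1 to Mccc2 was -6.16 in Ctrl 2 against -7.65 to -7.41, on 17 reads of Mccc1. The log2 ratio of Acacb to Mlycd was -0.46 in SA 4 against 0.26 to 0.33 in the other SA libraries. Total counts were 28184001 in SA 4 against 14114145 to 15922829.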

How the results depend on the processing

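Of the 10 genes 0 passed under any alternative run, and the fitted medians of 4 of the 8 lists changed sign when single libraries were left out. They ran from -0.17 (without Ctrl 1) to 0.16 (without Ctrl 4) for biotin and vitamin transport, -0.10 (without Ctrl 4) to 0.11 (without Ctrl 2) for leucine breakdown, -0.06 (without Ctrl 1) to 0.07 (without Ctrl 3) for AMPK, and -0.14 (without Ctrl 3) to 0.03 (without SA 3) for acetyl-CoA supply. Under other settings the sign also turned for acetyl-CoA supply (0.02 with limma on FPKM), AMPK (as low as -0.00945) and biotin and vitamin transport (as high as 0.0168). The other 4 medians kept their sign in every alternative run. Across the table, the genes called higher and lower were 23 and 37 with DESeq2, 3 and 5 without the low-count filter, 0 and 3 with limma on FPKM at either pseudocount or without a filter, and 1 and 5 with the replicate number as a block. Leaving out 1 library gave 0 to 13 higher (0 without Ctrl 4, 13 without SA 1) and 0 to 6 lower (0 without Ctrl 1, Ctrl 4, SA 2, SA 3 or SA 4, 2 without Ctrl 2, 6 without SA 1). Pairing of the samples by replicate number was not seen. Deviations of same-numbered libraries correlated at -0.02, -0.01, 0.24 and -0.24, and 1 of 8 libraries correlated best with its own number. Such a check could miss a weak pairing. The cause of these changes was not tested.

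With 1 library left out, log2 fold changes ran from -0.27 to 0.00904 for Acaca, -0.20 to 0.12 for Acacb, -0.15 to 0.17 for Mid1ip1, -0.14 to 0.0773 for Mlycd, -0.10 to 0.0737 for Pcx, -0.37 to 0.30 for Thrsp, -0.16 to 0.0771 for Mccc2 and -0.17 to 0.22 for Slc25a32. Log2 ratio differences ran from -0.0874 to 0.00634 for Acaca to Acacb, -0.29 to 0.14 for Acacb to Mlycd and -0.19 to 0.29 for Mid1ip1 to Thrsp. With limma on log2(FPKM + 1), with or without a filter, and on log2(FPKM + 0.1), signs turned for Acacb (0.0705 and 0.0528), Mlycd (0.0533 and 0.0542), Thrsp (-0.0456 and -0.0464), Aldh6a1 (-0.0918 and -0.0921), Mmadhc (0.0546 and 0.0552) and Slc25a32 (0.26 and 0.30). Thrsp turned to -0.00391 with upper quartile factors and to -0.11 with the block, and Slc25a32 to 0.0299 with the block. In ratios of FPKM, Mccc1 to Mccc2 was -0.73 (exact permutation test, p = 0.114) and Hlcs to Btd -0.81 (exact permutation test, p = 0.0286, the smallest it can give, against 0.0857 from counts). These p-values are not adjusted over the 6 ratios, and with that adjustment the count ratio of Hlcs to Btd had 0.514 (exact permutation test).

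Mccc1 rested on 4 to 18 reads per library, which sets how little can be said of it from counts. FPKM carry no depth here.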
